A study of Mus musculus with 7 samples.

Results

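The 8 genes described here are the peroxisome proliferator-activated receptor genes Ppara, Ppard and Pparg, their shared partner Rxra, and 4 textbook target genes, Pdk4, Angptl4, Cpt1a and Plin2 (called Adfp on the array). They were taken by gene name from the non-control spots of the arrays, which held 10 probes for them among 41174 probes. Of the 8 genes, 7 passed the filter on dim probes and were tested among 17111 genes; Ppard did not. Where a gene had more than 1 probe, the brightest was used.

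The skin came from the back of 5-week-old male mice of the hairless strain HR-1, which ate AIN-93G rodent diet with glucosylceramide (GC, a ceramide that carries a glucose) or without it (control-fed). On 3 two-colour arrays the skin had not been treated and the mice had eaten the diets for 12 days. On 4 arrays it had been treated daily for 2 days with 10% sodium dodecyl sulfate (SDS), a detergent that damages the skin barrier, and the mice had eaten the diets for 14 days. Each array held 1 GC-fed and 1 control-fed sample in opposite dyes, so the 4 groups were control-fed before SDS (3 samples), GC-fed before SDS (3), control-fed after SDS (4) and GC-fed after SDS (4). The replicates are labelled biological, without a statement on whether RNA of several mice was pooled.

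PPARs are nuclear receptors that bind fatty acids and their derivatives. They act as pairs with RXR at DNA elements built from repeats of a short hexamer, and switch on genes of fatty acid uptake, storage and oxidation. In skin they are known for roles in keratinocyte differentiation, in sebocytes and in the fat cells under the dermis.

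Of the spots on an array, 48.5% to 54.5% stood well above background in Cy3 and 58.2% to 62.8% in Cy5. The before-SDS arrays lay on 1 slide and the after-SDS arrays on another, with 12 and 14 days on the diets. SDS, slide and days on the diet therefore cannot be told apart. After-SDS array 4 ran against the other 3 across genes, with r = -0.50, -0.62 and -0.30 against arrays 1, 2 and 3; genes are not independent replicates. Its GC-fed sample was in Cy5, as on array 3. Directions follow the labels, and results that rest on array 4 are given also without it or with its sign turned. Markers of the epidermis were present, with 12 of 12 suprabasal keratinocyte genes well above background in all 14 channels. Markers of other tissues of the skin were present too: 12 of 12 skeletal muscle genes and 9 of 10 adipocyte genes were above background in all 14 channels.

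The windows from 250 bases before to 50 bases after each transcript start (RefSeq, build GRCm38.p6) were searched for the receptor hexamer. Windows were at hand for 7 of the 8 genes, 10 windows in all, with none for Angptl4. The hexamer AGGTCA, on either strand, lay in 5 of the 10 windows, those of Pparg (in 2 of its 3), Rxra, Cpt1a and Plin2; of all 32851 windows of the same length, 16.3% held it. The 2-hexamer element spaced by 1 base, AGGTCANAGGTCA, lay in 0 of the 10 and in 0.0396% of all windows. A looser form, AGGNCANAGGNCA, which overlaps the first, lay in 0 of the 10 and in 0.381% of all windows. At shares this low, 0 of 10 windows cannot set the members apart from other genes. Sequence outside the windows was not searched. The matches follow as 30 bases around each hexamer, 5′ to 3′ on the gene's strand, with the hexamer in capitals. Where the match is on the opposite strand, the capitals are its reverse complement, TGACCT. They describe letters in these windows and were not tested for binding.
Pparg, chr6:115361104-115361133, + strand: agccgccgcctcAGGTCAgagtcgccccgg
Pparg, chr6:115362328-115362357, + strand: agggacgcgaggAGGTCAagaaggggcctg
Rxra, chr2:27709193-27709222, + strand: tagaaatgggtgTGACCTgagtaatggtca
Rxra, chr2:27709232-27709261, + strand: gggtggcaggaaAGGTCAgtcactctctgt
Cpt1a, chr19:3323195-3323224, + strand: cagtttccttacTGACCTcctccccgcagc
Plin2, chr4:86670260-86670289, - strand: tttcaggaccccTGACCTaagtcagacagc

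The first question was whether eating GC changed these transcripts. Ppara, Pparg and Rxra had ratios between -0.34 and 0.37 on every array, whereas Angptl4 and Pdk4 ranged widely from array to array and in both directions. None of the 7 tested genes differed between the diets before SDS, after SDS, or in the difference between the 2 states (0 of 7 each time). Across all genes, limma's fit with Benjamini-Hochberg adjustment also called 0% in each of these comparisons; at an unadjusted p under 0.05 it took 68 genes (0.397%) before SDS, 761 (4.45%) after SDS and 208 (1.22%) for the difference. Ratios below are log2 of GC-fed over control-fed.

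Ppara encodes the receptor best known for driving fatty acid oxidation. Its ratio was -0.08, 0.30 and -0.09 on the before-SDS arrays 1 to 3, and 0.03, 0.36, 0.20 and -0.07 on the after-SDS arrays 1 to 4. Values above and below 0 occurred in both states. The fitted diet effect was 0.04 (SE 0.12) before SDS and 0.13 (SE 0.10) after SDS, with adjusted p = 1 and 0.835 by limma.

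Pparg encodes the receptor that drives fat cell formation. Its ratio was 0.14, 0.24 and 0.03 before SDS, and 0.03, 0.03, -0.21 and -0.34 after SDS. It was the only tested member with a ratio of 1 sign on all 3 before-SDS arrays, a pattern that 9.29% of all genes showed above 0 and 9.61% below 0. After SDS 0 of 7 members kept 1 sign on the 4 arrays, against 3.36% of genes above 0 and 4.62% below 0. The diet effect after SDS minus that before SDS was -0.28 (SE 0.11), with unadjusted p = 0.0408 and adjusted p = 0.9998 by limma over all genes. It was -0.22 without after-SDS array 4 (unadjusted p = 0.103 by limma). With that array's sign turned it was -0.16 (unadjusted p = 0.277 by limma).

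Rxra encodes retinoid X receptor alpha, with which the PPARs pair. The brighter of its 2 probes gave 0.06, 0.01 and -0.08 before SDS, and 0.37, 0.10, 0.08 and -0.27 after SDS. The spread of this probe after SDS, with array 4 as its only negative value there, was wider than before SDS. The fitted diet effect after SDS was 0.07 (SE 0.09, adjusted p = 0.864 by limma). Without after-SDS array 4 it was 0.16 (SE 0.08, adjusted p = 0.291 by limma). With that array's sign turned it was 0.17 (SE 0.07, unadjusted p = 0.0396, adjusted p = 0.157 by limma). On before-SDS array 1 the second probe's spot was marked non-uniform by the scanner software and was left out. The second probe's ratios on the other 6 arrays ran from -0.28 to 0.19. On after-SDS array 3 it gave -0.28 where the brighter probe gave 0.08, and on after-SDS array 4 it gave -0.19.

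Ppard encodes the receptor that is widespread in epidermis, but its only probe was well above background in 1 of 14 channels, the GC-fed sample of after-SDS array 4. Its processed intensity ran from 13.7 to 40.6 over the 14 channels. These values are below what the array measures reliably, so no ratio or test is given for Ppard, and its expression in this skin was not detectable at this signal.

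**Figure D1:**
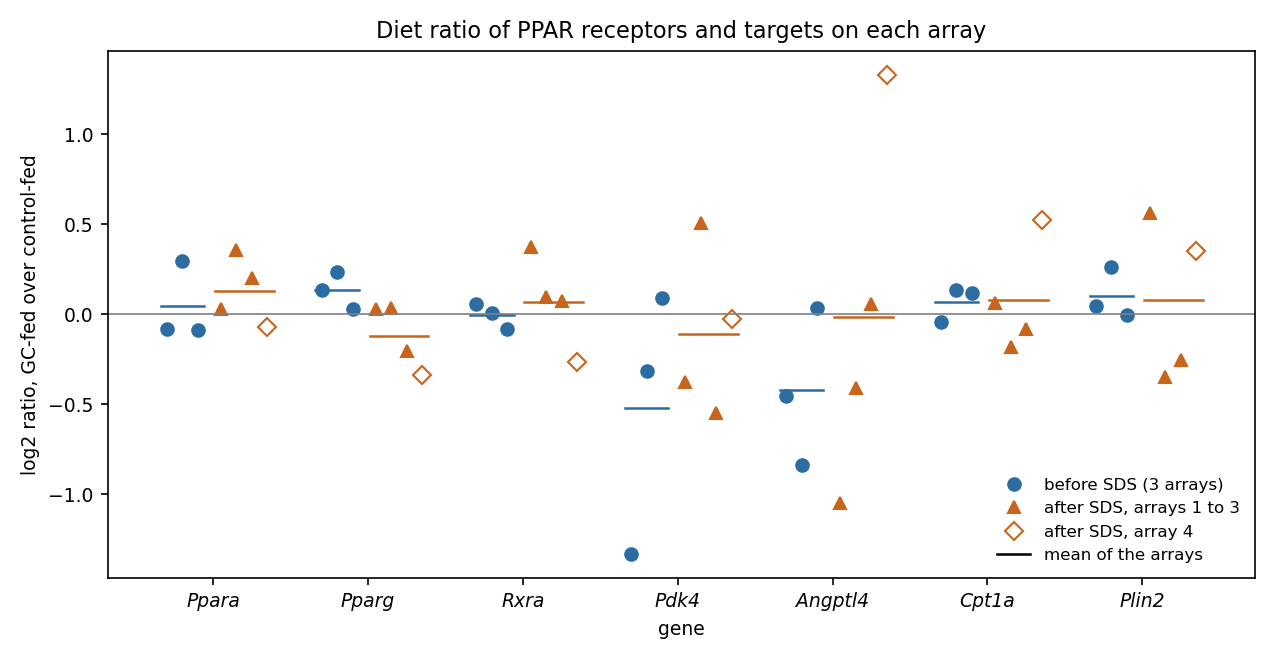
Diet ratio, as log2 of GC-fed over control-fed skin (y axis), for the 7 tested genes (x axis), 1 point per array; circles are the 3 before-SDS arrays, triangles and the open diamond the 4 after-SDS arrays, and lines the means. Ppara, Pparg and Rxra lie between -0.34 and 0.37, while Pdk4 spans -1.33 to 0.51 and Angptl4 spans -1.05 to 1.33, its highest value coming from after-SDS array 4.

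Angptl4 encodes a secreted inhibitor of lipoprotein lipase and is a target of all 3 PPARs. Its ratio was -0.46, -0.84 and 0.03 before SDS, and -1.05, -0.41, 0.06 and 1.33 after SDS. Arrays 3 of both states were near 0, and after-SDS arrays 1 and 4 stood at opposite ends. The SD over the 7 arrays was 0.78, larger than that of 98.5% of genes, against a median of 0.19. The fitted effect was -0.57 (SE 0.34) before and -0.02 (SE 0.29) after SDS, with adjusted p = 1 and 0.989 by limma. The effect before SDS was -1.11 without before-SDS array 1 and -0.21 without array 2. The value of -1.11 lies below both before-SDS ratios left in that fit, -0.84 and 0.03. On both of these arrays the GC-fed sample was in Cy5, so only the after-SDS arrays, array 4 among them, could set the dye term. The value of -1.11 therefore rests on that term and is not what the 2 ratios show by themselves. Without after-SDS array 4 the effect after SDS was -0.40 (SE 0.21, adjusted p = 0.316 by limma), and with that array's sign turned it was -0.55 (SE 0.22, adjusted p = 0.151 by limma).

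Pdk4 encodes a kinase that shuts off pyruvate dehydrogenase and so spares glucose when fat is burned. Its ratio was -1.33, -0.32 and 0.09 before SDS, and -0.38, 0.51, -0.55 and -0.03 after SDS. A single array, before-SDS array 1, carried the lowest value, and the others fell on both sides of 0. The SD over 7 arrays was 0.58, above that of 96.3% of genes. The fitted effect before SDS was -0.56 (SE 0.30, adjusted p = 1 by limma), and 0.06 without before-SDS array 1. The before-SDS ratios left were then -0.32 and 0.09, and the dye term again came from the after-SDS arrays alone.

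Cpt1a encodes the enzyme that admits long-chain fatty acids to mitochondria. Its ratio was -0.04, 0.14 and 0.12 before SDS, and 0.06, -0.18, -0.08 and 0.52 after SDS. The highest value was again that of after-SDS array 4. Its 2 probes agreed in sign on 5 of 7 arrays. On after-SDS array 3 the dimmer probe gave -0.61 where the brighter gave -0.08, and on before-SDS array 1 it gave 0.16 against -0.04.

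Plin2 encodes the protein that coats lipid droplets in most cells. Its ratio was 0.05, 0.26 and -0.0067 before SDS, and 0.56, -0.35, -0.26 and 0.35 after SDS. The after-SDS arrays split into a pair above and a pair below 0. Its SD over 7 arrays, 0.33, was above that of 82.5% of genes. The fitted effect was 0.10 (SE 0.19) before and 0.08 (SE 0.16) after SDS, with adjusted p = 1 and 0.915 by limma.

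The size of diet effect that these arrays left possible differed between members. After SDS, the 95% interval of limma's fit ran from -0.29 to 0.05 for Pparg and from -0.13 to 0.27 for Rxra. For Angptl4 it ran from -0.70 to 0.67 and for Pdk4 from -0.71 to 0.48. The intervals of Angptl4 and Pdk4 were thus the wider. These intervals take after-SDS array 4 as labelled. With its sign turned, the effect was -0.55 (SE 0.22) for Angptl4 and 0.17 (SE 0.07) for Rxra. Their unadjusted p were 0.0370 and 0.0396, and their adjusted p 0.151 and 0.157, by limma. For Pparg it was then 0.0045 (SE 0.09) and for Pdk4 -0.03 (SE 0.26).

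Cell type markers also differed between arrays. After SDS the median ratio of 6 measured neutrophil markers was -0.38, -0.70, -0.97 and 1.23 on arrays 1 to 4, and that of 12 macrophage and monocyte markers was -0.77, -0.55, -1.07 and 0.48. Both lists were positive only on array 4, where Angptl4 was highest, but they were lowest on array 3, where Angptl4 was at 0.06, and Angptl4 was lowest on array 1. The 12 suprabasal keratinocyte markers had medians of 1.22, 0.66, 0.72 and -0.78. The summed level of the neutrophil markers ranged from 13.6 to 15.6 in control-fed and from 13.0 to 15.3 in GC-fed skin after SDS; of the 8 neutrophil markers, Elane was not well above background in any channel and Ly6g had no probe. The part of these cells in the Angptl4 values was not tested, and in whole skin fewer cells of a type cannot be told apart from less RNA per cell.

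Beside Pdk4, which is abundant in muscle, the 12 skeletal muscle markers had median ratios of -0.69, -0.09 and 0.38 before SDS, and -1.24, -0.40, -1.29 and -0.26 after SDS. On the before-SDS arrays they stood in the same order as Pdk4, lowest on array 1 and highest on array 3. After SDS the order differed, since Pdk4 was highest on array 2 and the muscle markers on array 4. The summed level of the muscle markers ranged from 18.8 to 19.2 in control-fed and from 18.4 to 19.2 in GC-fed skin before SDS, and from 19.2 to 19.7 and from 18.2 to 19.0 after SDS. Muscle was not the list closest to Pdk4. Over the 14 channels, Pdk4 had r = 0.379 with the mean level of the muscle markers and r = 0.667 with that of 9 endothelial markers. With 6 wound keratinocyte markers it had r = -0.653. Channels share arrays and dyes, and no p is given. The part of these cell types in the Pdk4 values was not tested.

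**Figure D2:**
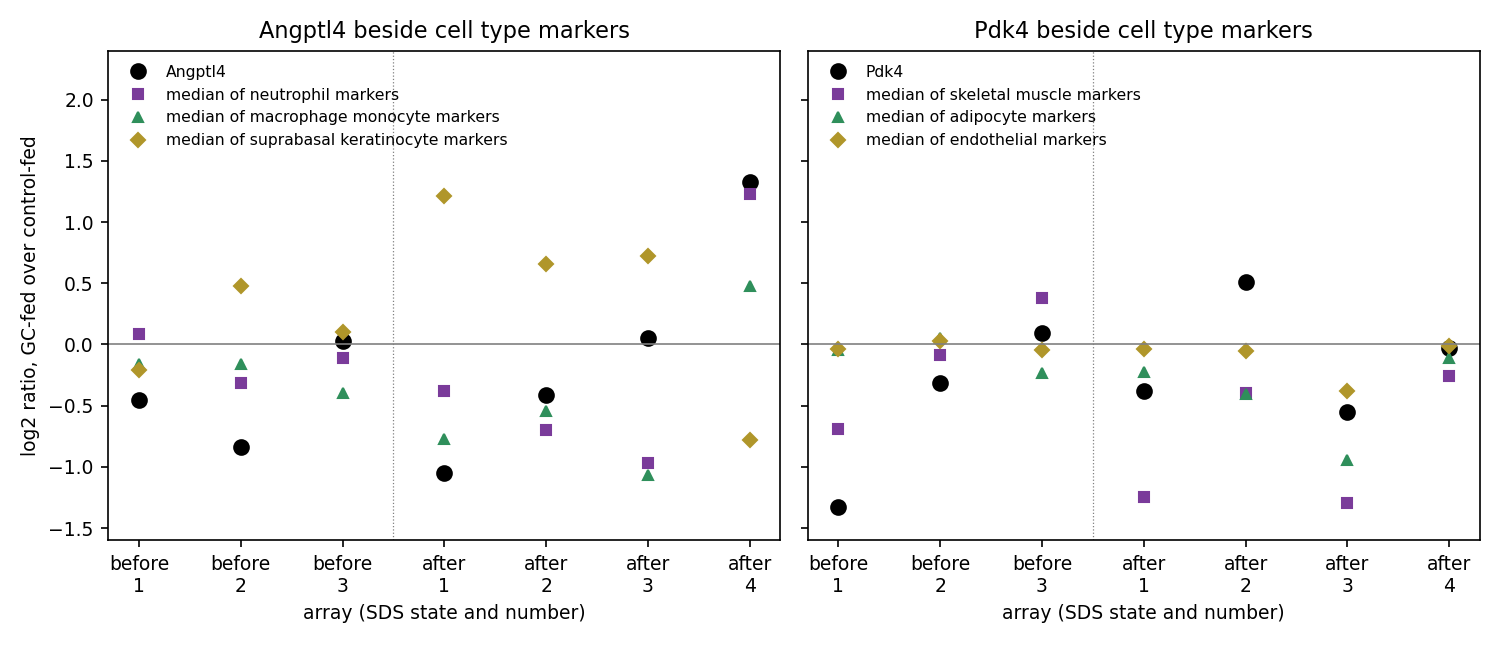
Diet ratio, as log2 of GC-fed over control-fed skin (y axis), on each array (x axis) for Angptl4 (left) and Pdk4 (right) as black circles, with the median ratio of cell type marker lists as coloured symbols. On after-SDS array 4, Angptl4 is at 1.33 and the neutrophil median at 1.23; on after-SDS array 3 they part, at 0.06 and -0.97. On before-SDS array 1, Angptl4 is at -0.46 and the neutrophil median at 0.09, and Pdk4 is at -1.33 and the muscle median at -0.69.

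The second question was how SDS treatment moved these genes within each diet. In control-fed skin 0 of 7 members passed limma's separate-channel test, while 15% of all 17064 genes passed (7.17% higher and 7.87% lower after SDS). In GC-fed skin 1 of 7 passed, Angptl4, which rose, while 13.6% of all genes passed (6.53% higher, 7.06% lower); 1 of 7 is near that background. At an unadjusted p under 0.05, 0 of 7 members were taken in control-fed skin and 2 of 7 (Angptl4 and Pparg) in GC-fed skin, against 32.7% and 30.2% of all genes. In both diets 6 of 7 estimates were below 0 and only that of Angptl4 was above, with a member median of -0.17 in control-fed and -0.13 in GC-fed skin against medians of 0.0057 and 0.0036 over all genes. Levels below are log2 intensities of a gene's own probe and are not comparable between genes.

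Angptl4 stood at 13.22, 13.06 and 13.88 in GC-fed skin before SDS and at 13.83, 14.22, 14.22 and 14.67 after it. The lowest sample after SDS lay just below the highest before SDS, so the groups overlapped by that pair. The SDS effect was 0.92 (SE 0.27, 95% interval 0.33 to 1.51), a 1.89-fold rise with adjusted p = 0.0434 by limma. Over 15 alternatives the effect stayed between 0.63 and 1.12 with adjusted p from 0.0385 to 0.186 by limma, and in 11 of the 15 it no longer passed. Among these were Agilent's processed signals (adjusted p = 0.0711), no dye term (adjusted p = 0.0801) and leaving out before-SDS array 2 (effect 0.68, adjusted p = 0.186) or array 3 (adjusted p = 0.0739), or after-SDS array 1 (adjusted p = 0.0552), 2 (adjusted p = 0.0999) or 3 (adjusted p = 0.0848), all by limma.

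In control-fed skin Angptl4 stood at 13.68, 13.90 and 13.85 before SDS and at 14.88, 14.63, 14.16 and 13.33 after it. The 3 samples of arrays 1 to 3 were above every sample before SDS and that of array 4 was below every one. The SDS effect was 0.37 (SE 0.27, adjusted p = 0.368 by limma); without after-SDS array 4 it was 0.68 (SE 0.22, adjusted p = 0.0498 by limma), and without before-SDS array 1 it was 0.02. The SDS effects in the 2 diets were not shown to differ: their difference is the diet effect after minus before SDS, 0.55 (SE 0.45, adjusted p = 0.9998 by limma).

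Marker lists were read in the same comparisons. Of 11 measured hair follicle markers, 8 rose with SDS in GC-fed skin (6.53% of all genes did) and 3 in control-fed skin (7.17% of all genes), with medians of 1.63 and 0.94 and, for GC-fed skin, summed levels of 16.1 to 17.5 before and 18.2 to 18.9 after SDS. All 6 measured neutrophil markers were above 0 in both diets, with medians of 0.57 in control-fed and 0.49 in GC-fed skin and 0 called. Their part in the Angptl4 change was not tested.

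Pparg stood at 11.54, 11.43 and 11.30 in GC-fed skin before SDS and at 11.35, 11.16, 11.15 and 10.96 after it. Only the sample of after-SDS array 1 reached into the range before SDS. The SDS effect was -0.29 (SE 0.09, unadjusted p = 0.00915, adjusted p = 0.0600 by limma), which missed the threshold. In control-fed skin the levels were 11.41, 11.20 and 11.27 before and 11.32, 11.12, 11.36 and 11.30 after SDS, fully overlapping, with an effect of -0.00098 (SE 0.09, adjusted p = 0.996 by limma).

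Cpt1a stood at 11.86, 11.89 and 11.89 in control-fed skin before SDS and at 11.75, 11.63, 11.71 and 11.55 after it. It was the only member whose control-fed groups did not overlap, lower after SDS, which 15.8% of all genes also showed; in GC-fed skin 0 of 7 members had groups apart, against 11.8% of genes in each direction. The effect was -0.24 (SE 0.11, adjusted p = 0.169 by limma) in control-fed skin. In GC-fed skin it was -0.19 (SE 0.11, adjusted p = 0.293 by limma), with levels from 11.81 to 12.03 before and from 11.44 to 12.07 after SDS.

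Pdk4 stood at 12.98, 12.01 and 12.54 in control-fed skin before SDS and at 12.05, 12.00, 11.92 and 11.89 after it. Samples after SDS lay within a narrow range. That of array 1 was just above the lowest sample before SDS, and those of arrays 2 to 4 were below it. The effect was -0.57 (SE 0.29, adjusted p = 0.199 by limma). In GC-fed skin the levels were 11.64, 11.69 and 12.63 before and 11.67, 12.51, 11.37 and 11.87 after SDS, with an effect of -0.11 (SE 0.29, adjusted p = 0.832 by limma).

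For Ppara, Rxra and Plin2 no SDS estimate passed in either diet. Ppara was at 8.61 ± 0.11 (SD, n = 3) before and 8.40 ± 0.16 (SD, n = 4) after SDS in control-fed skin, an effect of -0.22 that did not pass (SE 0.10, adjusted p = 0.172 by limma). Rxra was at 13.03 ± 0.03 (SD, n = 3) and 12.84 ± 0.16 (SD, n = 4) in the same groups, and Plin2 at 15.46 ± 0.06 (SD, n = 3) and 15.36 ± 0.15 (SD, n = 4). In GC-fed skin the effects were -0.13 for each of the 3 genes, with adjusted p = 0.434, 0.473 and 0.631 by limma for Ppara, Rxra and Plin2.

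**Figure D3:**
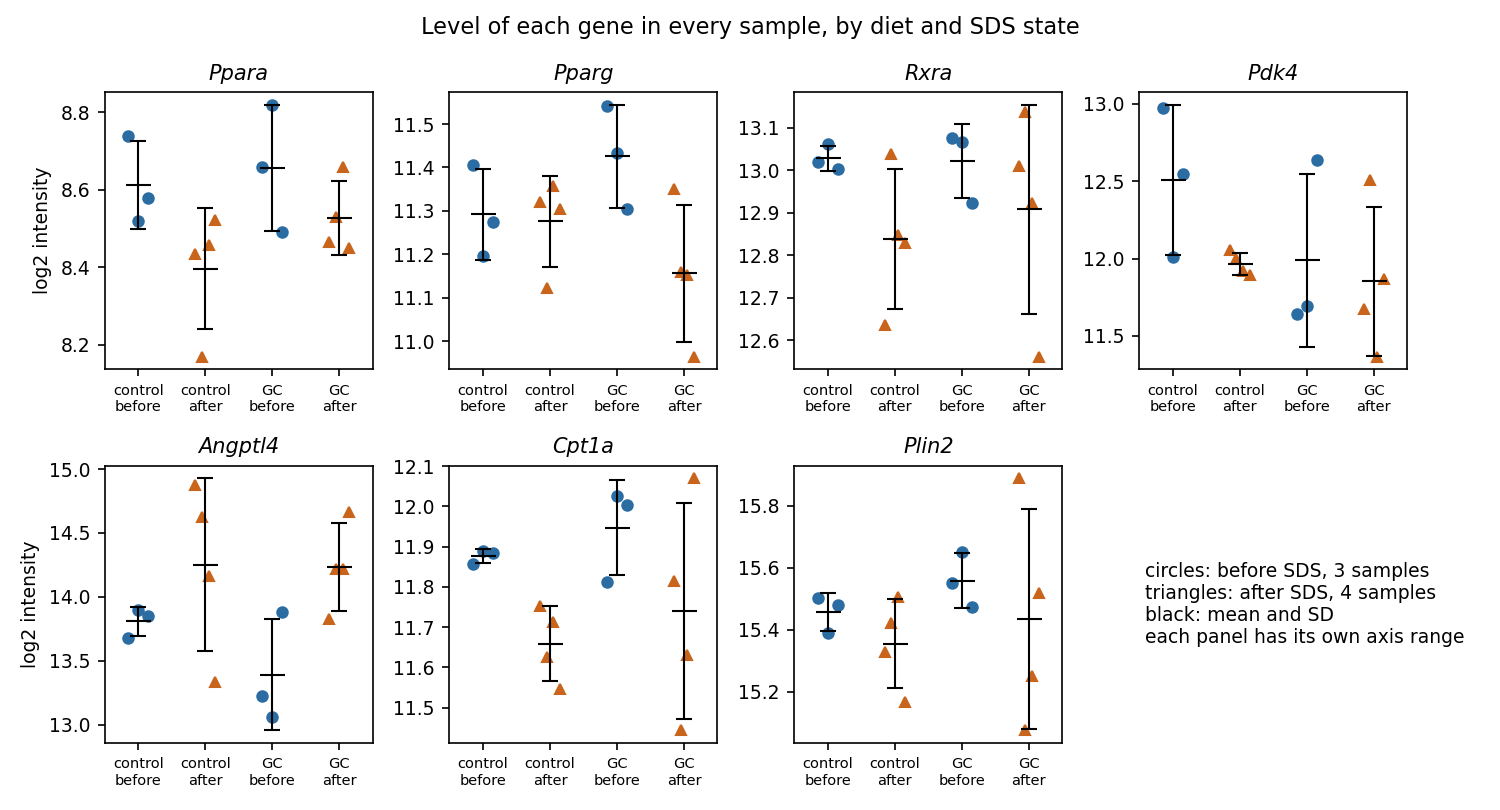
Normalized log2 intensity (y axis, its own range in each panel) of the 7 tested genes in every sample, by diet and SDS state (x axis); circles are 3 samples before SDS, triangles 4 samples after SDS, and black marks the mean and SD. Neighbouring groups overlap for every gene when ordered by mean. The control-fed samples of Cpt1a before SDS, 11.86 to 11.89, lie above those after SDS, as for 15.8% of all genes.

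Ordered by mean level, the 4 groups differed by 0.19 for Rxra, 0.20 for Plin2, 0.26 for Ppara, 0.27 for Pparg, 0.29 for Cpt1a, 0.66 for Pdk4 and 0.86 for Angptl4. GC-fed skin before SDS was the highest group for Ppara, Pparg, Cpt1a and Plin2 and the lowest for Angptl4. In no gene did neighbouring groups in this order separate. The control-fed groups of Cpt1a were apart, lower after SDS, as were those of 15.8% of all genes.

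**Figure D4:**
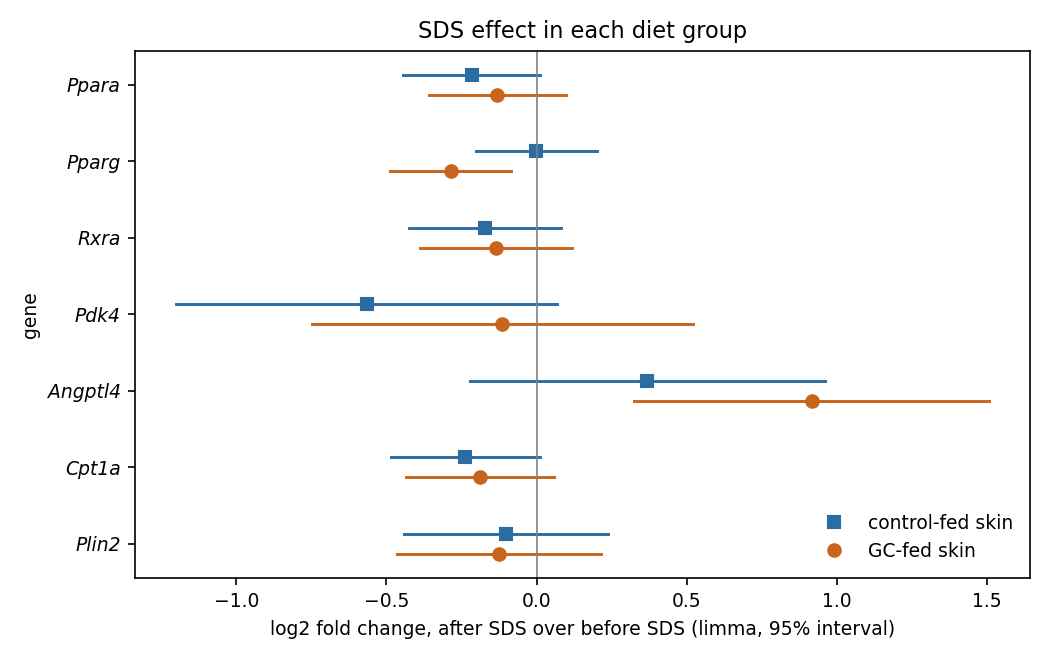
Log2 fold change after over before SDS (x axis) with its 95% interval from limma's fit, for each gene (y axis) in control-fed skin (squares) and GC-fed skin (circles). Angptl4 in GC-fed skin, at 0.92, and Pparg in GC-fed skin, at -0.29, have intervals that do not include 0; only the first passed after adjustment over all genes.

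Other genes of the pathway were followed in fixed lists. Their counts stand beside shares over all genes of 7.17% higher and 7.87% lower with SDS in control-fed skin, and 6.53% and 7.06% in GC-fed skin. The counts over all genes themselves ran from 83 to 3693 in control-fed and from 559 to 2763 in GC-fed skin when single arrays were left out. Of 17 partners and coregulators of the receptors, all measured, 0 differed by diet. With SDS in control-fed skin 2 rose and 0 fell: Rxrg, a second RXR, by 0.42 (SE 0.11, adjusted p = 0.0274 by limma), and Med1, a mediator subunit that binds PPARs, by 0.41 (SE 0.13, adjusted p = 0.0492 by limma). In GC-fed skin 0 passed. The count in control-fed skin was 0 without any 1 of the before-SDS arrays or without after-SDS array 1, and 3 without after-SDS array 4. The smallest p of the list for diet after SDS was that of Rxrg, with ratios of -0.20, -0.10, -0.70 and -0.36 on the 4 arrays and an effect of -0.34 (SE 0.09, adjusted p = 0.835 by limma).

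Of 31 fatty acid oxidation genes 30 were measured. In control-fed skin 3 rose with SDS and 7 fell, and in GC-fed skin 3 rose and 5 fell, with list medians of -0.07 and -0.16. Acaa1a, a peroxisomal thiolase, rose by 0.43 (SE 0.08, adjusted p = 0.00562 by limma) in control-fed skin and by 0.38 (adjusted p = 0.0115 by limma) in GC-fed skin. Acot1, an acyl-CoA thioesterase, fell by 0.79 (SE 0.15, adjusted p = 0.00594 by limma) in control-fed skin, and stood at -0.46 in GC-fed skin (adjusted p = 0.0550 by limma). Etfa, which passes electrons from fatty acid oxidation to the respiratory chain, fell by 0.34 in each diet (adjusted p = 0.0124 and 0.0147 by limma). Without before-SDS array 1, 0 of these genes passed in control-fed skin, where over all genes 83 passed. In GC-fed skin 0 rose and 1 fell with processed signals, and over all alternatives 0 to 3 rose and 0 to 6 fell.

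Diet left 0 of the oxidation genes past the threshold after SDS. Acot1 had the smallest p, with ratios of 0.95, 0.47, 0.65 and -0.13 and an effect of 0.48 (SE 0.14, adjusted p = 0.835 by limma). Acaa2, a mitochondrial thiolase, was above 0 on all 4 arrays with an effect of 0.17 (SE 0.07, adjusted p = 0.835 by limma), and Eci2 was at 0.22 (SE 0.10, adjusted p = 0.835 by limma).

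Of 16 fatty acid uptake and activation genes, 1 rose and 1 fell with SDS in each diet. Dbi, the acyl-CoA binding protein, rose by 0.50 in control-fed skin (SE 0.10, adjusted p = 0.00940 by limma) and by 0.34 in GC-fed skin (adjusted p = 0.0476 by limma). The fatty acid transporter gene Slc27a2 fell by 0.36 in control-fed skin (adjusted p = 0.0302 by limma), and Slc27a1, named after its values were seen, fell by 0.66 in GC-fed skin (adjusted p = 0.0278 by limma). Without before-SDS array 1, 0 rose and 0 fell in control-fed skin. In GC-fed skin 0 rose with processed signals, and 0 rose when any array but after-SDS array 4 was left out. Over all alternatives 0 to 3 fell there, with 0 when array 2 or 3 of the before-SDS set was left out. After SDS 0 passed for diet; Fabp4, a fatty acid carrier of fat cells, had ratios of -0.78, -0.55, -0.81 and 0.04, and Cd36, a fatty acid receptor, had -0.38, -0.34, -0.96 and 0.17.

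Of 18 lipid droplet genes 17 were measured. With SDS 2 rose and 3 fell in control-fed skin, and 0 rose and 5 fell in GC-fed skin. Bscl2, which encodes seipin, fell by 0.61 in control-fed skin (SE 0.10, adjusted p = 0.00385 by limma) and by 0.64 in GC-fed skin (adjusted p = 0.00485 by limma), and Fitm2, which helps droplets bud, fell by 0.41 and 0.43 (adjusted p = 0.0171 and 0.0167 by limma). Plin1, the perilipin of fat cells, rose by 0.47 in control-fed skin (SE 0.11, adjusted p = 0.0161 by limma). The others, named after their values were seen, were Cidec (higher) and Hilpda (lower) in control-fed skin, and Hilpda, Dgat1 and Lipe (lower) in GC-fed skin. Without before-SDS array 1 none passed in control-fed skin (0 higher, 0 lower). The count of 5 lower in GC-fed skin was 1 with processed signals and 2 without before-SDS array 1, and ran from 1 to 5 over all alternatives.

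The 16 adipocyte genes known as Pparg targets gave the highest list median of the pathway with SDS in control-fed skin, 0.36, with 7 higher and 0 lower. Gpd1, which makes glycerol phosphate, rose by 0.56 (SE 0.07, adjusted p = 0.00177 by limma), Adipoq, which encodes adiponectin, by 0.68 (SE 0.14, adjusted p = 0.00918 by limma), and the glycerol channel Aqp7 by 0.48 (SE 0.09, adjusted p = 0.00780 by limma). In GC-fed skin the median was 0.06 and 0 passed. Without before-SDS array 1 the count in control-fed skin was 1, and without after-SDS array 4 it was 11.

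For diet after SDS, 15 of these 16 genes had estimates below 0 (GC-fed under control-fed), with a median of -0.40 against -0.00071 over all genes, and 0 passed. Gpd1 had ratios of -0.26, -0.38, -0.80 and -0.51 and an effect of -0.49 (SE 0.07, adjusted p = 0.835 by limma). Plin1 had -0.20, -0.38, -1.11 and -0.54, and Lep, which encodes leptin, had -0.26, -0.57, -1.48 and -0.77. These 3 genes were named for the smallest p in this comparison. Without array 4 the median was -0.64 with 6 of 16 genes lower, when 677 of 17110 genes were, and with its sign turned -0.47 with 3 lower, when 1161 of 17111 were.

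Of these 16 genes 8 (50%) are also in the list of 10 adipocyte markers (80% of it), so the lists are not separate evidence. The lipid droplet list shares 2 of its 18 genes with these 16, Plin1 and Cidec. Their rises with SDS in control-fed skin are counted in both lists, and that of Plin1 also among the relatives below. The adipocyte marker medians on the after-SDS arrays were -0.23, -0.40, -0.94 and -0.11, and the summed adipocyte level ranged from 18.0 to 18.6 in control-fed and from 17.7 to 18.1 in GC-fed skin after SDS. Pparg itself, at 0.03, 0.03, -0.21 and -0.34 on these arrays, was near 0 on arrays 1 and 2 where its adipocyte targets had medians of -0.26 and -0.38. The part of fat tissue in these values was not tested.

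Relatives of the members were read in the same way: 13 of 14 (other angiopoietin-like, PDK, CPT1 and perilipin genes) were measured. In control-fed skin Angptl6 rose with SDS by 0.42 (adjusted p = 0.0128 by limma) beside Plin1, and in GC-fed skin Angptl1 fell by 0.45 (adjusted p = 0.0403 by limma) and Angptl2 by 0.57 (adjusted p = 0.0222 by limma), the reverse of the sign of Angptl4 in the same skin. The control-fed count of 2 was 0 when any 1 of the before-SDS arrays was left out. The GC-fed count of 2 was 0 when array 2 or 3 of the before-SDS set, or array 1, 2 or 3 of the after-SDS set, was left out. These genes were named after their values were seen.

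The genes whose level followed each member most closely over the 14 channels were taken from 13511 candidates; channels share arrays and dyes, and no p is given. For Angptl4 they were Cpne8 (r = 0.932), Prr5l (r = 0.888) and Iqce (r = 0.887), and for Ppara they were Map3k9 (r = 0.943), Zfp120 (r = 0.942) and Mid2 (r = 0.933). Rxra was closest to Slc6a9 (r = 0.921), Cop1 and Nupr1l (r = 0.864 each), and Cpt1a to Cables2 (r = 0.904), Slc48a1 (r = 0.894) and Tmem51 (r = 0.87). Pparg had the lowest best value, with Dis3l2 (r = 0.796), Gadl1 (r = 0.772) and Pex11g (r = 0.756). Among the 3 closest to Pdk4 were 1700030K09Rik (r = 0.841) and Galnt15 (r = 0.83), and Plin2 was closest to Pak1ip1 (r = 0.859), Nadk (r = 0.819) and Ube2g2 (r = 0.80).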

How the data were processed

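Per the file headers, the 7 two-colour scanner files hold spot intensity as Agilent Feature Extraction (9.1.3.1) wrote it. The authors' deposited gene table holds log2 ratios and intensity floored at 200, with 7 of the 8 members; it served as an alternative only. Mean signals were corrected by normexp (offset 50) and normalized by loess within arrays with limma 3.58.1 in R 4.3.3; marked spots (4 to 27 per array) were left out. Probes well above background in 3 of 14 channels were kept, and the brightest probe stood for a gene. Diet effects came from 1 fit of the 7 ratios with a dye term, SDS effects from a separate-channel fit of the 14 channels after Aquantile normalization (17064 genes; 47 lacked a spot). P-values were adjusted by Benjamini-Hochberg over all genes, threshold 0.05; with 3 and 4 arrays, their number limits precision. The fits were tested on simulated data. Members and lists were chosen with earlier results of these data known. Named genes were the members, up to 3 per pathway list with the smallest p for diet after SDS and for SDS in control-fed skin, and the 3 nearest by correlation; a gene that this rule names is not reported here. Alternatives changed the background correction, centring, dye term, filter, probe rule, arrays used, the sign of after-SDS array 4, and a replicate block.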

Additional observations from a re-analysis of the deposited data

Results flagged for a closer look

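One value stood out in data that the comparisons above did not use. In the authors' deposited table, the log2 ratio of Rxra on before-SDS array 1 was 2.66, while on the other 6 arrays that table held values between -0.28 and 0.39. On that array the spot of the second Rxra probe had a mean signal of 58051 in the GC-fed channel and 8639 in the control-fed channel, a ratio of 6.72, and the scanner software had marked it as non-uniform. The brighter Rxra probe gave a log2 ratio of 0.06 on the same array. With the authors' deposited table in place of the scanner values, the Rxra diet effect before SDS was 1.07 (unadjusted p = 0.0300, adjusted p = 0.9999 by limma). In 21 groups of 4 samples examined for a single sample far from the others, 0 stood out.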

How the results depend on the processing

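Of the values of the 7 tested genes, 483 kept their side of the threshold and their direction under an alternative, 44 changed sign, 11 lost the threshold and 1 gained it. The 11 lost were all Angptl4 with SDS in GC-fed skin. The count of members past the threshold there fell from 1 to 0 with Agilent's processed signals, without the dye term, without the filter, with the mean over probes, with the sign of array 4 turned and with the replicate block. Leaving out each array, that count ran from 0 to 1, and in control-fed skin from 0 to 1.

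Counts over all genes moved more. With the sign of after-SDS array 4 turned, 1847 genes passed for diet after SDS, 123 for the difference of the diet effects and 4366 for SDS in control-fed skin (2566 as labelled). Processed signals gave 1301 for SDS in GC-fed skin (2319 with normexp). Leaving out each array gave 0 to 928 for diet after SDS, 0 to 56 for the difference, 83 to 3693 for SDS in control-fed skin and 559 to 2763 in GC-fed skin; the extremes 928, 56, 3693 and 2763 came without after-SDS array 4, and 83 and 559 without before-SDS arrays 1 and 2. The deviations of same-numbered arrays had correlations of -0.0859, -0.0454 and 0.186, against -0.0884 to 0.155 for the other pairs. Only arrays 3 thus stood above the other pairs. The replicate block gave 1685 genes for SDS in control-fed skin.

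The values that changed sign had not passed the threshold as reported, and the cause was not tested. Before SDS, Rxra was -0.0060 without the dye term and Ppara -0.014 in the authors' deposited table. After SDS, Rxra and Plin2 were -0.017 and -0.016 with median centring, and Pparg, Cpt1a and Plin2 were 0.0045, -0.14 and -0.12 with the sign of array 4 turned. The difference of the diet effects was -0.039 for Rxra and -0.0082 for Cpt1a with median centring, -0.085 for Cpt1a with the mean over probes, -0.036 for Angptl4 and -0.19 for Cpt1a with the sign turned, and -0.28 for Angptl4, -0.048 for Cpt1a and 0.13 for Plin2 with the replicate block. For SDS in control-fed skin, Pparg and Plin2 were 0.018 and 0.027 with processed signals, Plin2 was 0.0011 with the sign turned and Pparg 0.026 with the replicate block; in GC-fed skin Pdk4 was 0.016 with processed signals.

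Leaving out each array, the diet effect before SDS ran from -0.82 to 0.065 for Pdk4, -0.012 to 0.058 for Cpt1a, -0.083 to 0.17 for Ppara and -0.012 to 0.13 for Rxra. After SDS it ran from -0.0071 to 0.16 for Rxra, -0.40 to 0.23 for Angptl4, -0.12 to 0.26 for Plin2, -0.43 to 0.13 for Pdk4 and -0.055 to 0.20 for Cpt1a. The difference ran from -0.040 to 0.21 for Ppara, -0.057 to 0.15 for Rxra, -0.18 to 0.74 for Pdk4, -0.18 to 0.14 for Plin2 and -0.11 to 0.19 for Cpt1a. The SDS effect ran from -0.064 to 0.12 for Pparg in control-fed skin and from -0.40 to 0.19 for Pdk4 in GC-fed skin. Signal over background limits what can be said of Ppard.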
